A study of Mus musculus with 3 samples.

Results

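A set of 35 genes of the cell division cycle was followed through the circulating leukocytes of untreated mice. The genes are the 35 of 19059 genes in the count matrices whose symbols are in a fixed list. By their known roles, 15 serve DNA replication, 19 serve mitosis, and 1, Stmn1, encodes stathmin, a protein that destabilises microtubules. A cell was called cycling when it held 5 or more unique molecular identifiers (UMIs, the counted molecules) over the 35 genes. That is a count rule, and a cell that meets it is described here by its genes and not taken to be dividing.

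Before a cell copies its DNA, the minichromosome maintenance proteins encoded by Mcm2 to Mcm7 are loaded onto origins as a helicase ring. Cyclin E promotes the firing of origins, and the transcription factor E2f1 drives entry into replication. Ribonucleotide reductase and thymidylate synthase supply the nucleotides, and Pcna clamps the polymerases to DNA. Genes of mitosis rise later, under cyclin A and cyclin B with the kinase Cdk1, and their products are destroyed again through the anaphase-promoting complex. Most leukocytes of healthy blood are resting cells, and mature neutrophils and platelets no longer divide.

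The 3 libraries are droplet libraries made with a fixed-cell probe kit, so each UMI is a ligated probe pair and not a transcript read. All came from peripheral blood of mice whose genotype label reads Male, with no treatment, at 8, 9 and 10 weeks of age for replicates 1, 2 and 3. Age and library cannot be told apart, so no age was compared. Red cells had been lysed, and the sort used DAPI and Draq5. Whether each library is its own animal is not in the labels, so p-values measure the spread between these samples, which may be technical.

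The files held 11105, 5736 and 7029 barcodes with 45718031, 19591648 and 23443660 UMIs. After removal of 1182 barcodes with under 200 genes and of 938 doublets, 21750 cells remained, and their median depth per library ranged from 3129.5 to 3474 UMIs. Of these, 21419 got a class from raw marker counts in which the 35 genes played no part, 248 were mixed and 83 stayed uncalled. B-lineage cells were most numerous (9786), followed by T cells (6264), neutrophils (2701), monocytes (1328) and natural killer (NK) cells (862). T cells were split by Cd4 (2445 CD4 T cells) and by Cd8a with Cd8b1 (3072 CD8 T cells), and 747 stayed unsplit. Monocytes were split into 634 Ly6c-high and 690 Ly6c-low cells. Of the markers that made the calls, Cd79a was counted in 99.9% of B-lineage cells, Cd3e in 98.1% of T cells and Ncr1 in 99.2% of NK cells. Others of the same lists were counted in fewer, as Ebf1 in 72.8%, Cd6 in 49.1% and Klra4 in 55.9% of these classes. Since the markers chose the cells, these shares do not test the calls. Libraries shared 83, 101 and 48 barcodes, at most 1.45% of the smaller library of a pair.

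The 35 genes gave 49361 UMIs, or 626, 605 and 598 CPM (UMIs scaled to a total of 1000000) in replicates 1, 2 and 3, and the median cell held 2. Replication genes gave 41402 of these UMIs and mitosis genes 4853. Pcna with Mcm2 to Mcm7 made up 71.1% of the sum. The scarcest gene, Bub1, which encodes a kinase of the spindle checkpoint, had 17 UMIs in all cells. A count of 5 or more was therefore set mainly by Pcna and the helicase subunits.

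Across all classes 2548 of 21750 cells (11.7%) held 5 or more UMIs. The cut ran through a dense part of the distribution, with 1132 cells at exactly 5 UMIs and 1993 at 4. Of the 2548 cells, 1754 (68.8%) held no UMI of the 19 mitosis genes, and 295 held 2 or more. T cells of all kinds made up 1335 of the 2548, B-lineage cells 813, NK cells 169 and monocytes 144.

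**Figure D1:**
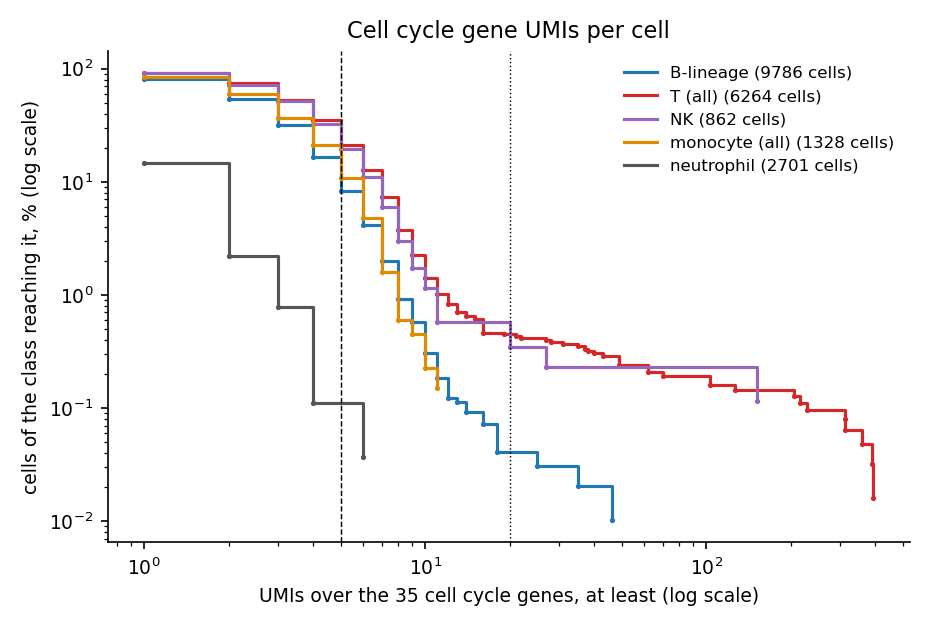
Share of cells of each lineage (y axis, %, log scale) that hold at least the number of cell cycle gene UMIs on the x axis (log scale), all 3 libraries pooled; the dashed line marks 5 UMIs and the dotted line 20. The 5 lineages fall steeply to about 10 UMIs, beyond which T and NK cells keep a flat tail that reaches 393 UMIs in T cells.

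Among the classes of over 300 cells, CD8 T cells had the highest mean share of cells at 5 or more UMIs, at 23.8%, 29.5% and 22.5% in replicates 1, 2 and 3 (mean 25.3% ± 3.75, SD, n = 3). NK cells followed at 18.6%, 21.0% and 25%. CD4 T cells stood at 18.2%, 19.9% and 13.9%. Every T and NK value lay above every B-lineage value, which were 8.84%, 8.24% and 7.97%. Ly6c-high monocytes (14.9%, 13.5% and 8.62%) and Ly6c-low monocytes (8.64%, 12.0% and 4.46%) overlapped the B-lineage range. Neutrophils, the background class, had 1 such cell in 2701, and platelets 1 in 318.

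The mean difference from B-lineage cells was 16.9 percentage points for CD8 T cells, 13.2 for NK cells and 9.00 for CD4 T cells, each higher in 3 of 3 libraries. The exact permutation test over 3 against 3 samples (two-sided) gave p = 0.1 for each, the smallest value it allows, and 0.133 after adjustment over 8 classes. The same exact permutation test gave p = 0.2 for Ly6c-high monocytes and p = 1 for Ly6c-low monocytes, or 0.229 and 1 after adjustment. No class could pass 0.05 in this unpaired test.

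Depth moved with the shares. With the cells of each class and library divided by depth into 4 equal bins, 9.00% of CD8 T cells reached 5 UMIs in the shallowest bin (mean of the medians 2926.5 UMIs) and 44.7% in the deepest (5461 UMIs). In B-lineage cells the share went from 1.71% to 19% over its own 4 bins, whose depths (2350 to 4402 UMIs) were lower than those of CD8 T cells. With every cell thinned to 2000 UMIs the shares fell to 4.13% ± 1.43 in NK cells, 3.67% ± 1.13 in CD8 T cells, 2.57% ± 0.510 in CD4 T cells and 1.11% ± 0.0432 in B-lineage cells (SD, n = 3). NK, CD8 and CD4 T cells stayed above every B-lineage value, again with an exact permutation p of 0.1 each (0.114 adjusted). Unsplit T cells overlapped them. Ly6c-high monocytes, whose median depth of 7865 to 9272 UMIs was above that of the other classes of over 300 cells, went to 0 of 613 cells. Cells under 2000 UMIs were left out of the thinned shares, 650 in B-lineage, 106 in CD4 T, 117 in CD8 T, 42 in NK cells and 21 in Ly6c-high monocytes.

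**Figure D2:**
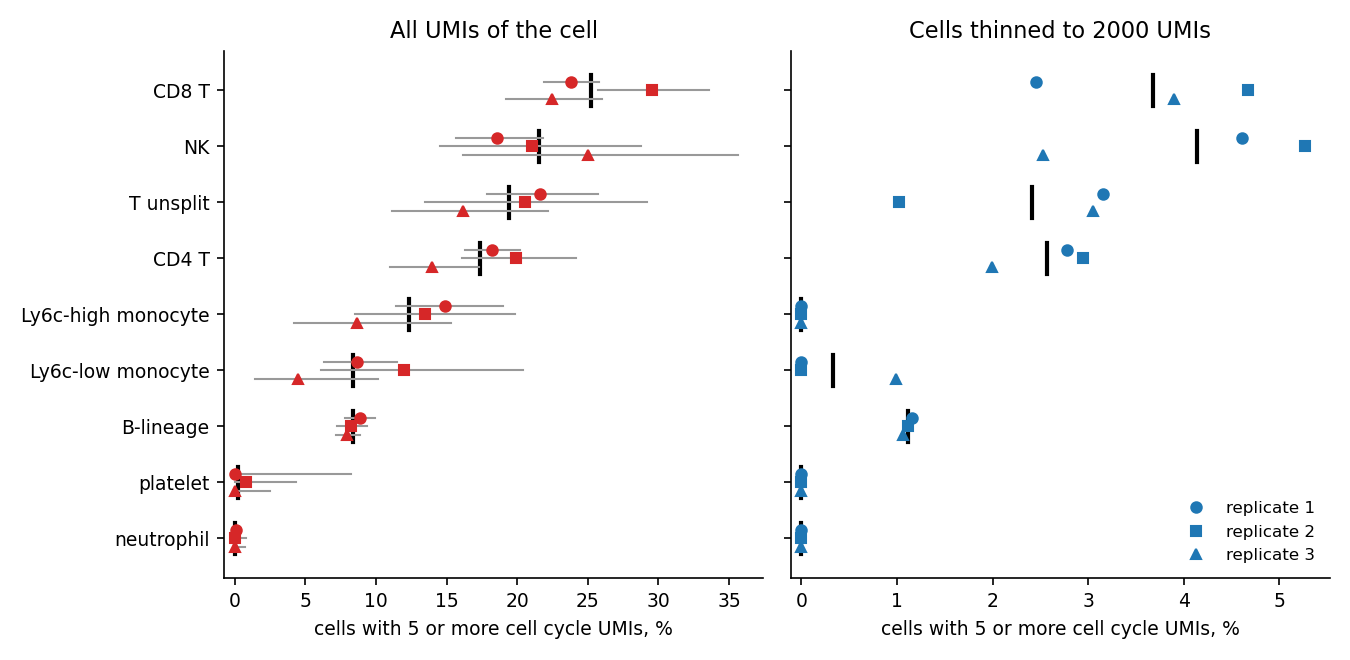
Share of cells with 5 or more cell cycle UMIs in each class (x axis, %), with all UMIs of the cell on the left and with cells thinned to 2000 UMIs on the right; symbols are the 3 libraries, bars their mean, and grey lines exact 95% binomial intervals that cover counting error only. CD8 T and NK cells lie at 22.5% to 29.5% and 18.6% to 25% on the left, while Ly6c-high monocytes sit at 0 in all 3 libraries on the right.

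Few cells held the genes in large numbers. Only 39 cells (0.179%, exact 95% interval 0.128 to 0.245%) had 20 or more UMIs over the 35 genes, a limit chosen after the distribution was seen. They numbered 26, 8 and 5 in replicates 1, 2 and 3. Of them 27 were T cells, 3 NK cells, 3 B-lineage cells, 5 mixed cells and 1 a progenitor-type cell. There were 6 cells at 20 to 24 UMIs and 18 at 15 to 19. These 39 cells held 7.88% of the UMIs of the 35 genes but 31.1% of the mitosis gene UMIs. By library the latter share was 45.3%, 15.7% and 11.2%, and without replicate 1 it was 13.5%. The 12 cells with 100 or more held 27.3% of the mitosis gene UMIs, and 8 of the 12 were in replicate 1.

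In T cells the share at 20 or more was 0.407%, 0.666% and 0.312% in replicates 1, 2 and 3. In B-lineage cells it was 3 of 9786 (0.0307%), all in replicate 1, and 2 of those 3 carried 36811 and 67922 UMIs in total, far above the class median of 3080 to 3225. In monocytes it was 0 of 1328, which allows up to 0.226%, and in neutrophils 0 of 2701, which allows up to 0.111%. The median depth of the 39 cells was 9828 UMIs.

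The highest cells differed in which genes they held. The 3 CD4 T cells at 312, 388 and 393 UMIs held 151, 305 and 269 mitosis gene UMIs. Others were mostly in replication genes. A CD4 T cell of replicate 2 held 111 replication and 10 mitosis UMIs of 127, and the CD8 T cell at 358 UMIs held 225 and 91. A CD8 T cell of replicate 3 held 67 replication and 2 mitosis UMIs of 70. An NK cell of replicate 2 held 97 mitosis UMIs of 152. A B-lineage cell of ordinary depth, 4916 UMIs, held 31 mitosis UMIs of 35.

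**Figure D3:**
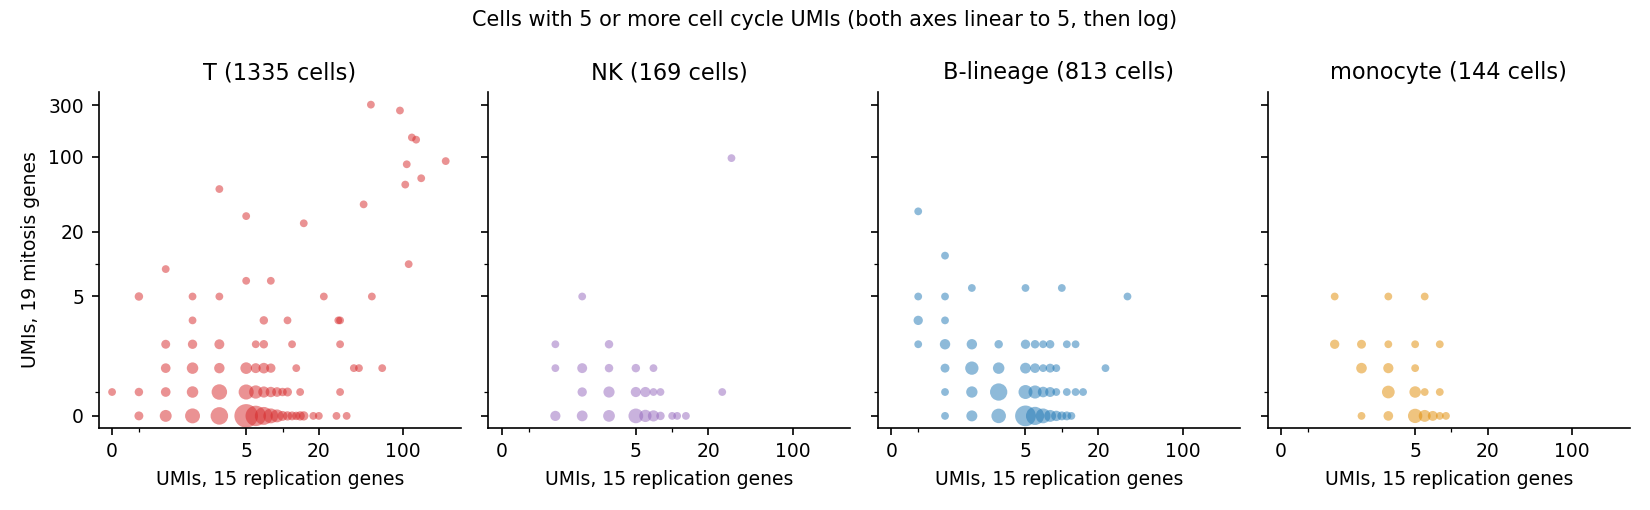
UMIs over the 15 replication genes (x axis) and the 19 mitosis genes (y axis) in every cell with 5 or more cell cycle UMIs, both axes linear to 5 and logarithmic beyond; larger points hold more cells. The 1335 T cells spread from replication genes alone to a group with both, 1 of the 169 NK cells reaches 97 mitosis UMIs and 1 of the 813 B-lineage cells 31, and the 144 monocytes stay at or under 5.

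Each gene was also read in cells chosen by the other 34 genes alone, over B-lineage, T and NK cells. Mki67, which coats mitotic chromosomes and is the usual marker of cycling cells, had a UMI in 19 of 33 cells with 20 or more UMIs of the others, in 2.44% of those with 5 or more and in 0.613% of those with under 2. Birc5, the survivin subunit of the chromosomal passenger complex, had one in 15 of 33 cells, in 0.865% and in 0.0632%. Ccna2 (cyclin A) had one in 15 of 33, in 1.25% and in 0.126%. The genes of mitosis were thus counted in few of the cells at the lower cut. Pcna had a UMI in 27 of 29 cells with 20 or more of the others, in 49.5% of those with 5 or more and in 32.8% of those with under 2. The median depth differed between these cells, and its part in the shares was not tested.

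Bases upstream of the genes were taken from RefSeq (mouse GRCm38.p6), where 28 of the 35 had an entry. They are shown because genes of replication and of mitosis are known to carry different promoter elements. The window searched was 250 bases before the start on both strands. The cell cycle genes homology region (CHR) was searched as TTTGAA or TTCGAA, the E2F element as TTTGGCGC, TTTCGCGC, TTTCCCGC or TTTGCCGC, and the CCAAT box as CCAAT. A CHR lay in 8 of 16 mitosis genes, in 2 of 12 replication genes and in 19.6% of all 27025 genes. An E2F element lay in 1 of 16, in 5 of 12 and in 2.16%, and CCAAT in 14 of 16, in 8 of 12 and in 37.5%. Mki67 (chr7:135716380-135716499, minus strand) and Top2a (chr11:99024190-99024309, minus strand), the latter DNA topoisomerase II alpha, each show 2 CHR matches in the last 120 bases. Kif11 (chr19:37376262-37376381, plus strand), the spindle kinesin Eg5, shows 1. Mcm6 (chr1:128359706-128359825, minus strand) shows 3 E2F matches, of which 2 overlap. Capitals mark any match of the 3 elements on either strand.
Mki67: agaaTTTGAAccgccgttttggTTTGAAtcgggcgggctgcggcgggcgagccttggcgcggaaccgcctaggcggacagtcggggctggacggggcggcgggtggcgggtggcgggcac
Top2a: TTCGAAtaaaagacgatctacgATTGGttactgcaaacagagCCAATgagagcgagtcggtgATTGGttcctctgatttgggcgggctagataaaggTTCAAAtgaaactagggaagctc
Kif11: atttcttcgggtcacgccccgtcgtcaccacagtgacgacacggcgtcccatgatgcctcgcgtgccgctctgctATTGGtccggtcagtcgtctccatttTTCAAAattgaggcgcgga
Mcm6: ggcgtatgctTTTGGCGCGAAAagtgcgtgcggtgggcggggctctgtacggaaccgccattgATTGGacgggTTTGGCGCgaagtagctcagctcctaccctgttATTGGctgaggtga

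Levels were compared between classes on counts summed per library and class. Of the 35 genes, 24 passed the filter on low counts, and Gins2, Cdc6, Ccne2, Birc5, Aurka, Bub1, Plk1, Tpx2, Cenpe, Cenpf and Nusap1 did not. A gene can pass through the class where it is high, so these counts describe the genes and support nothing. Each class was set against the mean of the other classes (edgeR quasi-likelihood test, library as a block, adjusted p under 0.05 over 10431 genes). CD4 T cells had 17 of the 24 higher and 0 lower, beside 63.0% of all genes called (43.1% higher and 19.9% lower), and a median log2 difference of 1.43 beside 0.26 over all genes. The 17 became 8 without replicate 1. DESeq2 gave 15 and 0, and 19 of the 24 had an unadjusted p under 0.05. CD8 T cells had 12 higher and 1 lower, beside 65.0% called (44.3% and 20.7%), with a median of 0.91 beside 0.25. NK cells had 11 higher and 1 lower, beside 48.8% (32.7% and 16.1%), with a median of 1.16 beside 0.19. Unsplit T cells had 12 higher and 0 lower, beside 55.8% (38.1% and 17.7%), with 12 at an unadjusted p under 0.05 and 14 and 0 by DESeq2. B-lineage cells had 9 higher and 0 lower, beside 67.3% (46.4% and 20.9%), with a median of 0.23 beside 0.26. There 9 had an unadjusted p under 0.05 and DESeq2 gave 9 and 0.

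Ly6c-high monocytes had 3 higher and 6 lower, beside 55.9% called (36.7% and 19.2%), with a median of -0.96 beside 0.16, and 10 lower by DESeq2. Ly6c-low monocytes had 5 higher and 3 lower, beside 49.5% (32.3% and 17.2%), and without replicate 1 these were 2 and 0. Neutrophils had 0 higher and 10 lower, beside 66.1% (39.4% and 26.7%), with a median of -1.70 beside 0.05, and 6 lower without replicate 2. No further gene had an unadjusted p under 0.05 in neutrophils (10 in all), and DESeq2 gave 0 higher and 15 lower. With classes at or under 3 UMIs set to 3, the medians were 0.96 in CD4 T cells, 0.70 in CD8 T cells, 0.55 in NK cells, -1.26 in Ly6c-high monocytes and -1.87 in neutrophils. Counts for platelets themselves are left out, since 21 of the 24 genes had 3 UMIs or fewer there. Platelets remain in the mean of the other classes, with the same weight as each other class, in all of these comparisons. With plain library totals in place of scaling factors the median of all genes moved by more than 0.1, to 0.71 in CD4 T cells and -0.92 in neutrophils, and 87.0% and 29.6% of called genes were then higher (68.4% and 59.7% before).

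**Figure D4:**
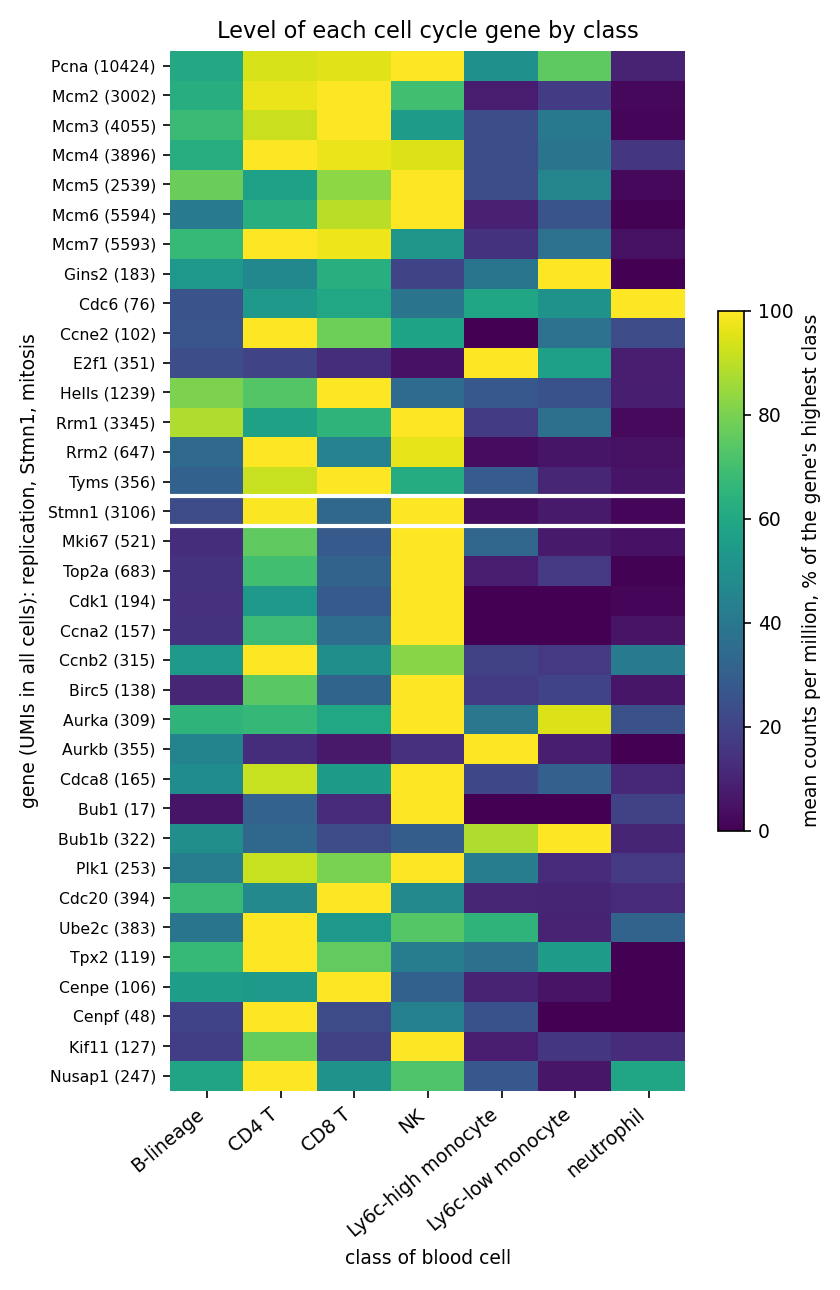
Level of each of the 35 genes (rows, with total UMIs in brackets) in 7 classes, as mean CPM over 3 libraries in percent of the gene's highest class. Pcna and Mcm2 to Mcm7 are each highest in CD4 T, CD8 T or NK cells and lowest in neutrophils, E2f1 and Aurkb are highest in Ly6c-high monocytes, and Cdk1 and Ccna2 are at 0 in both monocyte classes.

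Comparisons with B-lineage cells, the largest class, came from the same fit and were added after the data were seen. Pcna, the sliding clamp, stood at 118, 121 and 115 CPM in B-lineage cells, 182, 189 and 180 in CD4 T cells, 178, 195 and 187 in CD8 T cells and 175, 221 and 189 in NK cells. Every T and NK value lay above every B-lineage value. The log2 differences were 0.53 (SE 0.09) in CD4 T cells, 0.55 (SE 0.08) in CD8 T cells and 0.66 (SE 0.10) in NK cells, with edgeR adjusted p of 4.87e-07, 5.8e-08 and 2.31e-07. Of the 24 genes 14 were higher and 3 lower in CD4 T cells than in B-lineage cells, beside 56.2% of all genes called (28.6% and 27.6%). In CD8 T cells 8 were higher and 4 lower, beside 60.8% (31.2% and 29.7%), and in NK cells 6 and 3, beside 54.2% (25.4% and 28.8%). In neutrophils 0 were higher and 13 lower, beside 81.1% (37.9% and 43.2%), with 13 at an unadjusted p under 0.05 and 0 and 15 by DESeq2.

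The helicase subunits did not move as a unit. Mcm6 was at 59.0, 59.6 and 62.5 CPM in B-lineage cells, 123, 134 and 133 in CD8 T cells and 146, 146 and 144 in NK cells, with no overlap, and its log2 difference was 1.00 (SE 0.10) and 1.26 (SE 0.12). In CD8 T cells Mcm2, Mcm3, Mcm4 and Mcm7 were higher as well, by 0.42 to 0.56. In CD4 T cells Mcm2, Mcm4, Mcm6 and Mcm7 were higher by 0.46 to 0.54. Mcm5 went the other way in CD4 T cells, at 25.8, 34.0 and 27.8 CPM against 40.7, 38.4 and 39.8 in B-lineage cells (log2 -0.60, SE 0.14, edgeR adjusted p = 0.000289). Between the T classes Mcm6 was higher in CD8 than in CD4 T cells by 0.51 (SE 0.11, edgeR adjusted p = 0.000152), where 19.1% of all genes were called (9.70% higher and 9.42% lower). Mcm5 was higher there by 0.57, a call lost without replicate 1.

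Of the nucleotide enzymes, Tyms, thymidylate synthase, was at 2.10, 2.82 and 3.15 CPM in B-lineage cells, 5.86, 9.93 and 8.02 in CD4 T cells and 11.4, 9.91 and 4.69 in CD8 T cells. It was higher by 1.30 (SE 0.34) and 1.69 (SE 0.29). Rrm1, the large subunit of ribonucleotide reductase, was lower in both, by -0.73 (SE 0.12) in CD4 T cells and -0.55 (SE 0.11) in CD8 T cells. Its levels were 58.4, 59.5 and 54.4 CPM in B-lineage cells and 39.8, 44.7 and 27.1 in CD4 T cells, with no overlap. Rrm2, the small subunit, was higher in CD4 T cells by 1.5 (SE 0.54, edgeR adjusted p = 0.0273), a call lost without replicate 1 (1.16) or replicate 2 (1.41). The 7 CD4 T cells with 20 or more UMIs held 123 of the 177 Rrm2 UMIs of the class (69.5%), but 10.9% of the Rrm1 UMIs. The subunits of 1 enzyme thus differed in opposite directions in the summed CD4 T cells, with Rrm2 counted largely in those 7.

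Stmn1 was high in CD4 T and NK cells. It was at 115, 108 and 90.7 CPM in CD4 T cells and 106, 108 and 103 in NK cells, against 23.9, 21.1 and 27.8 in B-lineage cells. The log2 differences were 1.99 (SE 0.19) and 2.04 (SE 0.24), with edgeR adjusted p of 9.82e-09 and 3.07e-07. CD8 T cells stood at 45.3, 29.3 and 30.7 CPM, lower than CD4 T cells by -1.5 (SE 0.20, edgeR adjusted p = 9.24e-06). Stmn1 was counted in 573 of 2445 CD4 T cells, so its level did not rest on the few cells with 20 or more UMIs, which held 14.8% of it.

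The mitosis genes of CD4 T cells were counted largely in such cells in replicates 1 and 2. Mki67 was at 23.1, 20.6 and 4.32 CPM in CD4 T cells and 2.29, 3.36 and 2.64 in B-lineage cells, a log2 difference of 2.53 (SE 0.70, edgeR adjusted p = 0.00608). Top2a was at 37.9, 7.09 and 11.1 CPM against 2.68, 4.99 and 4.18, a difference of 2.35 (SE 0.55). Ccna2, Kif11, Cdk1 and Ube2c were called higher too, by 2.43, 2.15, 1.99 and 1.60. Ube2c encodes an ubiquitin-conjugating enzyme of the anaphase-promoting complex. All 6 calls were lost without replicate 1, where Mki67 differed by 1.78, Top2a by 0.88, Cdk1 by 1.03, Kif11 by 1.30, Ube2c by 0.72 and Ccna2 by 0.43. The Ccna2 call was lost without replicate 3 as well (2.88). The 7 CD4 T cells with 20 or more UMIs held 802 of 1143 mitosis gene UMIs (70.2%), among them 71.8% of Mki67, 69.8% of Top2a and 94.5% of Ccna2, but 7.32% of the replication gene UMIs. By library the mitosis share was 76.9%, 56.9% and 0%, since replicate 3 had no such cell, and without replicate 1 it was 36.6%.

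In CD8 T cells 16 such cells held 43.6% of the mitosis gene UMIs, or 51.9%, 6.60% and 28.7% by library and 18.1% without replicate 1. Mki67 was at 8.65, 4.74 and 4.69 CPM there, and its difference from B-lineage cells of 1.20 (SE 0.76) did not pass (edgeR adjusted p = 0.193; 1.33 and called without replicate 2). In NK cells Mki67 was at 1.82, 61.6 and 0 CPM, and 28 of its 36 UMIs lay in the 3 cells with 20 or more. The NK difference of 2.22 did not pass. It was 3.39 and called without replicate 1, and -0.87 without replicate 2. Cdk1 and Top2a were higher in NK cells by 2.30 (SE 0.64) and 2.40 (SE 0.72). Top2a was at 15.9, 40.4 and 24.0 CPM in NK cells, all above the B-lineage values, and its call was lost without replicate 2 (2.20). Those 3 NK cells held 28.6% of the Top2a and 18.2% of the Cdk1 UMIs of the class.

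In Ly6c-high monocytes other members were high. E2f1, a transcription factor that drives entry into replication, was at 13.4, 16.7 and 19.3 CPM in Ly6c-high monocytes and 2.87, 4.55 and 4.25 in B-lineage cells, with a log2 difference of 2.26 (SE 0.29, edgeR adjusted p = 6.51e-10). It had a UMI in 11.2% of Ly6c-high monocytes, 4.78% of Ly6c-low monocytes and 0.370% of neutrophils, at median depths of 7865 to 9272, 4332 to 4998 and 2665 to 2809 UMIs. In Ly6c-low monocytes E2f1 was above B-lineage cells as well, by 1.23 to 1.91 leaving out 1 library in turn. Directly between the monocyte classes, 0 of the 12 tested replication members, E2f1 among them, were called higher in Ly6c-high cells. Aurkb, the kinase of the chromosomal passenger complex, was at 17.8, 7.28 and 15.9 CPM in Ly6c-high monocytes and 8.03, 5.09 and 5.42 in B-lineage cells (log2 1.33, SE 0.31, edgeR adjusted p = 0.000139). The groups overlapped, with replicate 2 of the monocytes below replicate 1 of the B-lineage cells. In Ly6c-low monocytes Aurkb was at 1.57, 1.91 and 0 CPM, lower than in Ly6c-high monocytes in every library. The difference between the monocyte classes was 3.42 (SE 0.61, edgeR adjusted p = 7.12e-06), and 33.3% of all genes were called there (18.3% higher). In T cells Aurkb was low: 3.96, 0.709 and 0.617 CPM in CD4 T cells and 1.07, 0.431 and 1.28 in CD8 T cells, differences from B-lineage cells of -1.47 (SE 0.39) and -2.86 (SE 0.43).

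Bub1b, a spindle checkpoint kinase, was higher in Ly6c-high monocytes than in B-lineage cells by 1.03, a call lost without replicate 3 (0.91). Ube2c was higher by 1.05, a call lost without replicate 1 (0.76) or replicate 2 (0.98). Bub1b was above B-lineage cells in Ly6c-low monocytes too, by 0.67 to 1.51 leaving out 1 library in turn. Of the 24 genes 4 were higher and 11 lower in Ly6c-high monocytes than in B-lineage cells, beside 74.0% of all genes called (34.3% and 39.8%). Ube2c was at 3.74, 11.6 and 1.14 CPM in Ly6c-high monocytes and 0.956, 6.18 and 2.78 in B-lineage cells. Both classes were highest in replicate 2, where haemoglobin made up 2.96% of B-lineage UMIs against 0.134% and 0.644% in replicates 1 and 3. Erythroid-type barcodes carried Ube2c at up to 633 CPM, and the part of free red cell RNA in the Ube2c values was not tested.

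Of the 12 tested replication members 8 were lower and 1 higher in Ly6c-high monocytes than in B-lineage cells, where 39.8% of all genes were lower. Against the mean of the other classes 5 were lower and 1 higher, where 19.2% of all genes were lower. Mcm2 was at 4.68, 7.28 and 2.27 CPM against 37.7, 44.3 and 36.2 in B-lineage cells (log2 -2.74, SE 0.25). Mcm3 to Mcm7 and Rrm1 were lower by -1.21 to -2.08, and Stmn1 by -2.61. Cdk1 and Ccna2 had 0 UMIs in the 634 Ly6c-high and the 690 Ly6c-low monocytes, which allows a UMI in up to 0.473% and 0.435% of cells. Pcna did not follow the helicase, at 105, 99.7 and 88.6 CPM in Ly6c-high monocytes. It differed from B-lineage cells by -0.01 (SE 0.10), by 0.015 without replicate 2 and 0.011 without replicate 3, and by -0.23 and called lower with plain library totals. In Ly6c-low monocytes Pcna was at 128, 159 and 153 CPM, all above the B-lineage values (log2 0.51, SE 0.11, edgeR adjusted p = 3.71e-05), and 3 of the 24 genes were higher and 10 lower there, beside 66.9% of all genes called (30.7% and 36.2%). Between the monocyte classes Pcna, Mcm6 and Mcm7 were lower in Ly6c-high cells by -0.52, -1.52 and -1.18. Mcm2 to Mcm5 were called lower as well, Mcm3, Mcm4 and Mcm5 not without replicate 1 and Mcm2 not without replicate 1 or replicate 3.

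The share of cells with 2 or more mitosis UMIs was 8.21% ± 2.88 in Ly6c-high monocytes (SD, n = 3). Of the 267 mitosis gene UMIs of the class, Aurkb gave 81, Bub1b 44, Mki67 39 and Ube2c 29, against 10 for Top2a. The same share was 4.06% ± 2.05 in NK cells, 2.83% in CD8 T cells, 2.50% in CD4 T cells, 2.37% in B-lineage cells and 0.462% in neutrophils. Median depth was 7865 to 9272 UMIs in Ly6c-high monocytes and 3080 to 3225 in B-lineage cells, and its part was not tested. Scaled to the UMI total, the mitosis genes were level in these 2 classes, with means of 47.9 and 47.5 CPM. The means were 97.7 CPM in CD4 T cells, 58.3 in CD8 T cells, 116 in NK cells and 15.7 in neutrophils.

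Whether cells at 5 or more UMIs also carried the rest of the cell cycle programme was read in genes outside the 35. A list of 50 other replication genes and a list of 57 other mitosis genes were compared between these cells and cells of the same library and class with under 2 UMIs and the nearest total (edgeR, library as a block). T and NK cells had too few such cells for 3 per cell, so all were used. Totals stayed unequal in every class, as in B-lineage cells of replicate 1 (medians of 4139 and 3377.5 UMIs) and Ly6c-high monocytes of replicate 1 (10067 and 8242). In B-lineage cells 0 of 38 tested replication genes and 0 of 22 tested mitosis genes passed, beside 0.133% of all genes higher. Of these, 1 and 4 had an unadjusted p under 0.05, and DESeq2 called 0 and 0. The median log2 differences were 0.04 and 0.10, beside 0.00 over all genes. The genes that did pass in B-lineage cells lay elsewhere: Igha, the constant region of immunoglobulin A, at 8.02, 59.2 and 74.4 CPM against 3.93, 6.59 and 5.19 (log2 3.13, SE 0.33), with S100a6, Ass1 and Spn. Cd3d of the T marker list was higher too.

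In NK cells 0 of 5 replication and 0 of 4 mitosis genes passed, with 1 and 0 at an unadjusted p under 0.05 and 0 and 0 by DESeq2, beside 0.0924% of all genes higher. Ccl4 and Ccl3, chemokines of activated NK cells, were lower by -1.96 (SE 0.21) and -1.08 (SE 0.21), though Ccl4 stood at 141, 136 and 133 CPM against 658, 579 and 99.5, so replicate 3 went the other way. Thy1 was higher by 0.99 (SE 0.18), at 392, 530 and 533 CPM against 184, 415 and 133. Ly6c-high monocytes gave 0 of 5 and 0 of 4, with 0 and 0 at an unadjusted p under 0.05 and 0 and 0 by DESeq2, beside 0.0658% of all genes higher. Irf7 and Apoe were lower there, by -0.83 and -0.73. Cd79a of the B-lineage list was higher in the same cells, as was Ets1, which lymphocytes express (log2 2.26, SE 0.37), and their part in the choice of these monocytes was not tested.

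In T cells a few of these genes passed. In CD8 T cells 4 of 34 replication genes were higher and 0 of 14 mitosis genes, beside 1.05% of all genes. For the mitosis genes 5 had an unadjusted p under 0.05, and DESeq2 called 0 of either list, with no adjusted p given for 18 of the 34 and 8 of the 14. The 4 were Gmnn, which blocks relicensing of origins (log2 1.35, SE 0.31), Uhrf1, a reader of hemimethylated DNA (1.28, SE 0.32), the polymerase Pole (1.19, SE 0.33) and Dut, which clears dUTP (0.67, SE 0.16). Without replicate 1 the 4 became 1, and without replicate 3 they became 2. In CD4 T cells 0 of 20 replication genes passed (5 at an unadjusted p under 0.05, 0 by DESeq2), and 1 of 6 mitosis genes, the Cdk1-activating phosphatase Cdc25b, at 181, 157 and 146 CPM against 68.6, 108 and 82.7 (log2 1.10, SE 0.15), beside 0.734% of all genes higher. That count was 0 without replicate 1 and 5 without replicate 3, where 4 replication genes passed. E2f2 was higher by 1.61 (SE 0.35). Of genes in no list, the histone gene Hist1h2ap was higher in both classes. It stood at 283, 44.5 and 25.6 CPM against 18.7, 2.77 and 18.4 in CD4 T cells (log2 3.54, SE 0.29) and at 140, 21.9 and 16.4 against 12.4, 25.7 and 20.8 in CD8 T cells (2.50, SE 0.21), where only replicate 1 was higher. Thbs1 and Tubb1, genes of platelets, were higher in CD8 T cells by 1.74 and 1.64, and Alas2 of the erythroid list in CD4 T cells. Genes of memory and effector T cells were higher in both classes by edgeR, 8 of 9 tested in CD8 T cells (Cd44, Nkg7, Eomes, Ccl5, Tbx21, Gzma, Il2rb, Cxcr3) and 4 of 6 in CD4 T cells. Over all genes edgeR called 85 of 8086 higher in CD8 T cells and 52 of 7082 in CD4 T cells. DESeq2 called 9 and 8, with no adjusted p for 1881 genes in CD8 T cells. Depth differed between the arms, with medians of 4837 and 3684 UMIs in CD8 T cells of replicate 1, and its part was not tested.

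Over all classes pooled, 14 of 45 replication and 14 of 36 mitosis genes were higher, beside 7.37% of all genes, and 1 and 0 lower, beside 10.3%. The medians were 0.24 and 0.52, beside -0.01. The arms differed in make-up, since B-lineage cells were 19.1% of the cells at 5 or more and 34.7% of the matched cells in replicate 1, and CD8 T cells 33.8% and 18.5%. All 8 B-lineage markers were lower and 5 of 7 T markers higher in the same test. Lef1, Tcf7, Satb1 and Ccr7, genes of naive T cells, were higher there as well. DESeq2 called 2 replication and 4 mitosis genes, and without replicate 1 the counts were also 2 and 4. The part of make-up in these counts was not tested.

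At 10 or more UMIs most tested genes of both lists were higher in T cells. This comparison, added after the data were seen, set 52, 22 and 15 T cells of replicates 1, 2 and 3 against 267 matched cells. These T cells include the 27 with 20 or more UMIs. The other 62 held 10 to 19 UMIs and were not compared alone. The filter on low counts kept 28 of the 50 other replication genes and 11 of the 57 other mitosis genes. A gene can pass through the arm where it is high, here and at 5 or more UMIs. Counts of tested genes therefore describe the genes and support nothing. Of the other replication genes 23 of 28 tested were higher, and of the other mitosis genes 9 of 11, beside 4.27% of all 6140 genes, with medians of 1.39 and 1.96 beside 0.00. None of either list was lower (0 and 0), beside 2.26%. Pclaf, which binds Pcna at forks, was at 289, 88.0 and 183 CPM against 12.9, 13 and 9.51 (log2 4.13, SE 0.33), with no overlap. Uhrf1 was higher by 4.01 (SE 0.35), the histone chaperone Asf1b by 3.32 (SE 0.51) and Gmnn by 3.29 (SE 0.41). Of the mitosis genes Tacc3, a spindle protein, was higher by 3.35 (SE 0.41), the condensin subunit Ncapd2 by 2.26 (SE 0.31) and Knstrn by 2.10 (SE 0.40). Cdca3 was at 242, 41.1 and 91.3 CPM against 1.29, 0 and 9.51, from 3 UMIs in the matched cells. Most of the Pclaf and Cdca3 UMIs of the T cells at 10 or more lay in the 27 cells at 20 or more, which held 148 and 117. Without replicate 1 the counts were 15 and 2, without replicate 2 the mitosis count was 26, and DESeq2 gave 13 and 4.

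Regulators of cell cycle entry split. E2f2, Cdk2, Cdk6 and Rbl1 were higher, by 3.46, 2.00, 1.33 and 0.77, and Myc and Btg1 lower, by -0.69 and -0.48, while 14 of 20 tested did not pass. The linker histone gene Hist1h1b was at 956, 88.0 and 1167 CPM, from 3 UMIs in the matched cells. Lmnb1, a lamin, was higher by 2.87 (SE 0.19), and S100a4 by 2.79 (SE 0.18). Of 9 tested memory and effector genes 7 were higher by edgeR (Icos, Cd44, Nkg7, Tbx21, Gzmb, Il2rb, Cxcr3). Of 3 tested regulatory T genes 1 was higher by edgeR and 0 lower, beside 4.27% and 2.26% of all genes. Over all 6140 genes edgeR called 262 higher and DESeq2 49. Lef1, Tcf7 and Satb1, genes of naive T cells, were lower, while Ccr7 of the same list did not pass. Themis and Bcl11b of the T marker list were lower. Median depth in replicate 1 was 6864 UMIs against 4797 in the matched cells, and its part was not tested.

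**Figure D5:**
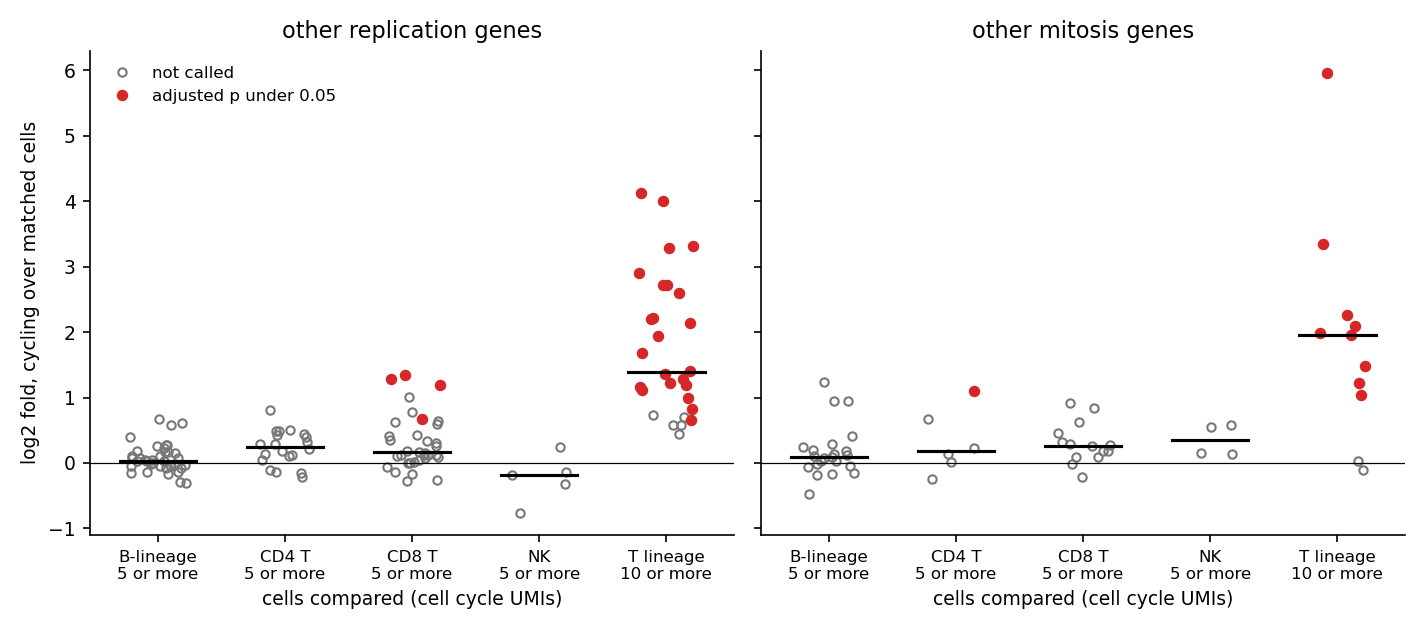
Log2 fold of each tested replication gene (left) and mitosis gene (right) outside the 35, in cells with many cell cycle UMIs over matched cells, by class; filled points passed an edgeR adjusted p of 0.05 and bars are medians. Medians lie near 0 in B-lineage cells and at 1.39 and 1.96 in T cells with 10 or more UMIs.

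The 27 T cells with 20 or more UMIs were described without a test, beside 81 matched T cells. They are part of the T cells at 10 or more UMIs above, so their values are not a separate result. In all 3 libraries, and with no overlap, 45 of 50 other replication genes were higher and 29 of the 56 mitosis genes with a UMI, beside 8.89% of 10613 genes. Of examples chosen after their values were seen, Dnmt1, the maintenance DNA methyltransferase, was at 732, 607 and 691 CPM against 158, 137 and 124. Tk1, thymidine kinase, was at 162, 79.8 and 138 CPM against 7.18, 0 and 15.5. Of 24 entry and exit regulators with a UMI, 8 were higher and 6 lower with no overlap, beside 8.89% and 10.3% of genes, and their roles went both ways. Among the 6 were the quiescence gene Btg1 (246, 319 and 249 CPM against 764, 686 and 835) and the inhibitor Cdkn1b (277, 239 and 276 against 391, 622 and 418), but also Myc and Ccnd2, which drive entry. Among the 8 were Cdk2 and E2f2, but also the inhibitors Cdkn2a (36.6, 31.9 and 55.3 CPM against 0, 0 and 0) and Cdkn2c. Smc4 was the 1 mitosis gene lower in that way.

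Of 12 memory and effector genes, 7 were higher and 1 lower with no overlap between the 27 and the matched cells, beside 8.89% and 10.3% of 10613 genes. The 1 lower gene was 8.33% of the list, near the share of all genes. Gzmb, granzyme B, was at 126, 208 and 636 CPM against 0, 0 and 0. Il2rb, a shared interleukin receptor chain, was at 1334, 1596 and 1437 CPM against 1113, 695 and 572, and Cd44 at 194, 223 and 249 against 179, 101 and 15.5. The gaps were thus small in replicate 1 for Il2rb and Cd44. Eomes, a factor of memory T cells, was the 1 lower, at 47.1, 31.9 and 0 CPM against 96.9, 91.4 and 108. Median depth was 10155, 9286 and 7817 UMIs in the 27 cells against 5714, 5044 and 5114.5 in the matched cells, and its part was not tested. Lef1, a factor of naive T cells, was at 366, 654 and 359 CPM against 1059, 1133 and 1516. Ccr7 of the same list overlapped, at 596, 383 and 1189 CPM against 811, 676 and 743, and was higher in replicate 3. All 4 regulatory T genes overlapped between the groups. Foxp3 was at 225, 79.8 and 0 CPM against 25.1, 302 and 201, and Ikzf2 at 382, 447 and 27.6 against 129, 155 and 278. Still, 1 of the 4 was higher in each of the 3 libraries, beside 13.4% of genes, and 0 were lower in each, beside 18.7%. Of markers of other lineages the 27 cells held at most 9 plasma UMIs (14 of 27 cells with any), 5 B-lineage UMIs (13 of 27), 8 monocyte UMIs (12 of 27), 8 platelet UMIs (3 of 27), 3 dendritic UMIs (4 of 27), 2 neutrophil UMIs (5 of 27), 2 erythroid UMIs (6 of 27) and 1 NK UMI, against 16 to 93 T marker UMIs. Among T cells under 20 cell cycle UMIs, 1375 of 6237 had a plasma and 1678 a B-lineage UMI. All basophil and macrophage markers were at 0 in the 27, and the part of the others was not tested.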

How the data were processed

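The 3 untreated libraries of mouse blood were analysed, with 19591648 to 45718031 UMIs each. Each value deposited by the authors is a raw count of UMIs for 1 gene in 1 barcode, from Cell Ranger 7.1.0 per the file headers. Its genome build was not given in the sources used. The 35 genes and all lists were chosen with earlier results of these data known.

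Barcodes with under 200 genes and Scrublet doublets (scanpy 1.11.5, expected rate 0.06, per library) were removed. A class needed 3 or more UMIs from 2 or more of its markers and 3 times the UMIs of every other leukocyte list. Thinning drew 2000 UMIs per cell. Intervals are exact (Clopper-Pearson) and cover counting error only, and a count of 0 allows 3 counts. Counts summed per library and class, or per library and arm, went into edgeR 4.0.16 (robust quasi-likelihood fit, TMM, filterByExpr, library as a block, Benjamini-Hochberg), with DESeq2 1.42.0 as an alternative. Arms took up to 3 matched cells per cell, and the 35 genes were left out. The scripts were tested on simulated data. Classes of 1 library deviated together: their correlation over 30 pairs was 0.0878 to 0.680, and across libraries -0.541 to -0.0024. Deviations were taken from the mean of each class over the 3 libraries. The negative values across libraries therefore follow from the positive ones and are no separate result. Members with the highest levels were named, with the 4 genes of largest change per list at 10 CPM or more and up to 8 others per direction at 20 CPM or more. Of the list genes, 298 of 299 had an entry. CPM are taken over the summed cells and are not compared between genes. The result for 1 gene of the T cell state lists is not reported here.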

Additional observations from a re-analysis of the deposited data

Results flagged for a closer look

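Nusap1, which encodes a protein that bundles spindle microtubules, had a UMI in 29.5% of the 78 erythroid-type barcodes (23 barcodes, 33 UMIs, exact 95% interval 19.7 to 40.9%), which enter no comparison of the report but the pooled one of cells at 5 or more UMIs (4 and 2 such barcodes in replicates 2 and 3, beside 12 and 6 matched). It stood at 365, 153 and 351 CPM in replicates 1, 2 and 3 (5, 57 and 16 barcodes), against 2.60, 4.48 and 0.765 CPM in neutrophils, the background class, and was above it in all 3 libraries. Haemoglobin made up 45.6%, 70.1% and 61.5% of the UMIs of these barcodes.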

How the results depend on the processing

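Shares at 5 or more UMIs moved with most changes of the cut. Asking for 5 or more UMIs from 3 or more genes moved none of 7 classes by more than 1 SD (CD8 T 24.2%, B-lineage 8.09%), nor did 10 or more UMIs in neutrophils. At 3 or more UMIs they were 31.9% in B-lineage, 48.6% in CD4 T, 56.4% in CD8 T, 51.2% in NK cells, 39.4% in Ly6c-high and 34.8% in Ly6c-low monocytes and 1.00% in neutrophils. At 10 or more they were 0.325%, 1.13%, 1.94%, 1.40%, 0.427% and 0.0686% in the first 6 of these, and at 20 or more, an alternative added after seeing the data, 0.0340%, 0.338%, 0.568%, 0.346%, 0 and 0. By 2 or more mitosis UMIs they were 2.37%, 2.50%, 2.83%, 4.06%, 8.21% and 0.823%, and 0.462% in neutrophils. Thinned to 2000 UMIs they were 1.11%, 2.57%, 3.67%, 4.13%, 0 and 0.330%. With doublets kept, B-lineage cells had 8.92% and neutrophils 0.326%, and with a marker lead of 2 times neutrophils had 0.0872%. Leaving out 1 library in turn gave 8.11 to 8.54% in B-lineage, 16.1 to 19.1% in CD4 T, 23.1 to 26.7% in CD8 T, 18.3 to 21.1% in unsplit T, 19.8 to 23.0% in NK cells, 11 to 14.2% in Ly6c-high and 6.55 to 10.3% in Ly6c-low monocytes, 0 to 0.0288% in neutrophils and 0 to 0.394% in platelets. Low depth limits all of these shares, and the cause of each move was not tested.

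Counts of the 24 tested genes against the other classes, leaving out 1 library in turn, were 7 to 9 higher and 0 to 1 lower in B-lineage cells, 8 to 21 and 0 in CD4 T cells, 9 to 15 and 0 to 1 in CD8 T cells, 10 to 12 and 0 to 2 in NK cells, 2 to 3 and 4 to 7 in Ly6c-high monocytes, 2 to 4 and 0 to 3 in Ly6c-low monocytes and 0 to 1 and 6 to 8 in neutrophils. Without the low-count filter 2 were lower in B-lineage cells and 1 higher in neutrophils. With doublets kept 1 was lower in B-lineage cells, and with plain library totals 0 in CD8 T cells. DESeq2 gave 10 lower in Ly6c-high and 5 in Ly6c-low monocytes. Differences that changed sign were those of Mki67 in NK cells against B-lineage cells (-0.87 to 3.39 leaving out 1 library in turn) and Pcna in Ly6c-high monocytes (-0.10 to 0.015), neither called with all 3 libraries.

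The fit without the library as a replicate block gave 0 replication and 0 mitosis genes higher in the pooled comparison of cells at 5 or more UMIs with matched cells, and 0 replication genes in CD8 T cells. With 1 matched cell per cell the pooled counts were 8 and 6, and with no low-count filter 24 mitosis genes. Without that filter CD4 T cells gave 2 and 11, and T cells at 10 or more 36 and 47. DESeq2 gave 2 and 4 pooled, 0 mitosis genes in CD4 T cells, 0 replication genes in CD8 T cells, and 13 and 4 at 10 or more. Leaving out 1 library in turn gave 2 to 11 and 4 to 16 pooled, 0 and 0 in B-lineage and in NK cells, 0 to 4 and 0 to 5 in CD4 T cells, 1 to 5 and 0 to 1 in CD8 T cells, and 15 to 28 and 2 to 26 in T cells at 10 or more. Of the alternatives run for single genes, 626 kept direction and call, 62 lost the call, 12 gained it and 3 changed sign.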

Other observations

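The same 78 erythroid-type barcodes held Ube2c at 0, 327 and 633 CPM in replicates 1, 2 and 3, with a UMI in 34 of them (43.6%). Ube2c and Nusap1 made up 50.8% and 26.6% of their cell cycle UMIs. Cdk1 and Birc5 had 0 UMIs there, Top2a and Stmn1 1 each and Pcna 3. The mitosis genes together stood at 548, 567 and 984 CPM and the replication genes at 0, 94.6 and 35.1 CPM. The single plasma-type cell and the single progenitor-type cell each reached 5 or more cell cycle UMIs, as did 5 of 9 dendritic-type cells and 1 of 71 basophil-type cells.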
